A study of Mus musculus with 6 samples.

Results

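Described here are 9 genes taken by name from a table of 56953 genes: the receptor genes Ptch1 and Smo, the decoy receptor gene Hhip, the co-receptor genes Gas1, Boc and Cdon, and the GLI genes Gli1, Gli2 and Gli3. All 9 were found in the table through their Ensembl identifiers, and positions are given in the build GRCm39. The samples were mouse embryonic fibroblasts (MEFs), sequenced as 6 bulk RNA libraries, 3 with the genotype WT and 3 with the genotype that the labels write as GalfaqKO, called GαqKO by the study. Both are MEF lines obtained from another laboratory, the second a knockout of Gαq and Gα11, and both were grown in medium with fetal bovine serum. No hedgehog ligand or SMO agonist is named for these cultures. The methods call the replicates biological, but nothing states that they came from separate embryos or cultures, so p-values measure the spread between these libraries of 1 line per genotype.

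The hedgehog pathway passes a secreted signal to the nucleus through a chain of inhibitions. Without ligand, the receptor PTCH1 keeps the membrane protein SMO inactive at the primary cilium, and the GLI factors are processed to repressors with the help of protein kinase A. When a hedgehog ligand binds PTCH1 together with a co-receptor (GAS1, BOC or CDON), SMO becomes active and full-length GLI factors switch on target genes, among them Gli1, Ptch1 and Hhip themselves. Embryonic fibroblasts are a standard cell for studying this pathway, since they carry a cilium and respond to added ligand.

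Values are normalized counts, which are reads per gene divided by 1 size factor per library, and they summed to between 11392429 and 11483486 per library. Gna11 fell from 2148 ± 29.0 to 452 ± 28.7 normalized counts (SD, n = 3 each), whereas Gnaq had 1660 to 1747 normalized counts in WT and 1888 to 1960 in the others and was thus not lower in the libraries labelled GαqKO. These libraries are therefore named by their labels, and each direction below is drawn from those labels. The lines differ in more than this genotype, so genotype and line cannot be told apart. The Y-linked gene Ddx3y had between 1139 and 1239 normalized counts in WT and was listed at 0 in each library labelled GαqKO. Xist was listed at 0 in each library of both groups, and the sex of the lines was not tested. All 10 fibroblast markers examined were tested, 5 were higher and 5 lower (limma adjusted p under 0.05, where 31.8% and 34.1% of all genes were called), and their sum ran from 84406 to 90167 normalized counts in WT and from 62921 to 66196 in the libraries labelled GαqKO. Col1a1, Vim and Fn1 were abundant in both groups, but Thy1 had at most 2.09 normalized counts in WT and Pdgfra at most 21.9. Summed markers of other cell types moved too, with epithelial markers (mainly Cdh1) at 255 to 285 in WT and 9.06 to 20.8 in the libraries labelled GαqKO, and the part of these differences in the results below was not tested. The sums of immune markers (188 to 209 against 427 to 449.8, mostly Cd14), neural and glial markers (829.5 to 949 against 581 to 601) and cartilage markers (1512 to 1706 against 2429 to 2497, nearly all Sox9) also differed, while endothelial and muscle markers summed to at most 25.4 in each library. As single members of these lists, Ptprc, Sox10, Myod1 and Acan had at most 3.13 normalized counts in each library, and Myog was listed at 0. The sums above came from other members of the lists.

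In the libraries labelled GαqKO the co-receptor genes moved furthest. Gas1 was 6.54 times as abundant there as in WT, whereas WT had 2.91 times as much Cdon and 15.9 times as much Boc (ratios of the means, n = 3 each). Gli2 and Gli3 were lower by smaller amounts, Ptch1 and Smo stood close to their WT levels, Gli1 did not pass the test, and Hhip was barely detected. Differences were tested with limma on log2(normalized count + 1). The test ran over the 14096 genes that reached 10 normalized counts in 3 or more libraries, and p-values were adjusted over all of them by the method of Benjamini and Hochberg. On this scale the change of a gene with few counts comes out too small. Of the 9 genes, 8 could be tested, and 7 of these had an adjusted p under 0.05 (2 higher and 5 lower). That share has to be read against a background in which 65.8% of all genes tested were called, 31.8% higher and 34.1% lower. With a log2 change past 1 in size as well, 3 of the 8 were called (Gas1 higher, Boc and Cdon lower), against 20.7% of all genes, 10.2% higher and 10.5% lower. The values of 6 of the 8 did not overlap between the groups, against 69.6% of all genes tested. By direction, Smo and Gas1 lay above WT in every library, as did 33.8% of all genes, and Gli2, Gli3, Boc and Cdon lay below, as did 35.8%. The median log2 change of the 8 genes was -0.34, beside -0.01 over all genes tested, and the median of its size was 0.57 beside 0.39.

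**Figure D1:**
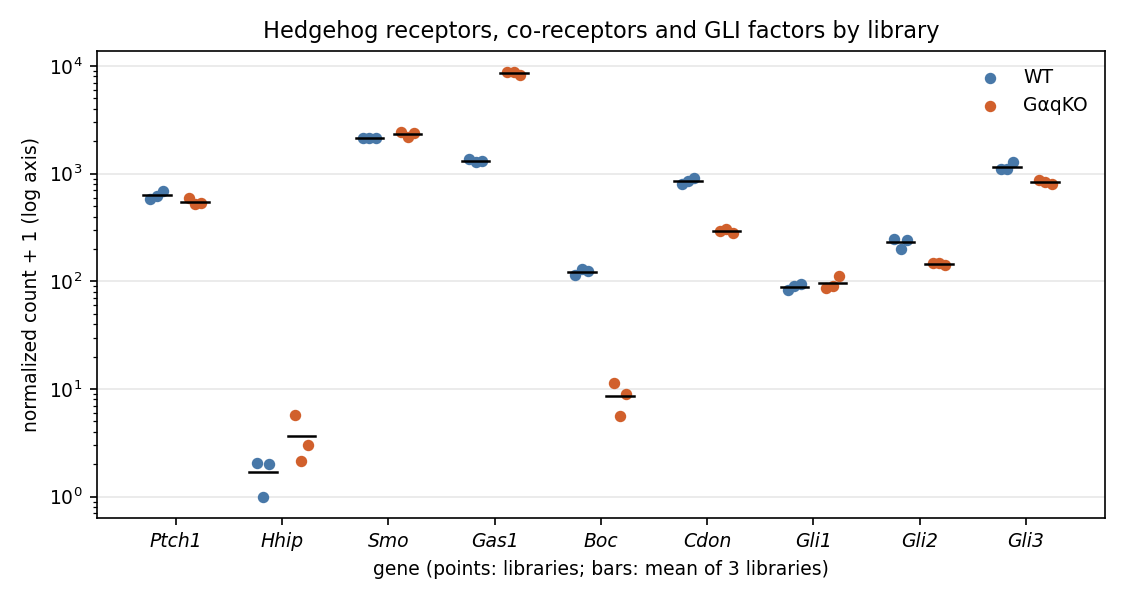
Normalized counts (plus 1, log axis) of the 9 genes in each library, WT in blue and the libraries labelled GαqKO in orange, with a bar at the mean of 3 libraries. Gas1 is the only gene of the 9 that lies far higher in the orange points (8342 to 8809 against 1297 to 1355), while Boc and Cdon lie far lower.

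The sequences in front of the genes that moved most are shown first, since the GLI proteins act by binding DNA. The window printed is the 250 bases before the start of the canonical transcript in GENCODE, read from GRCm39 on the strand of the gene, 5′ to 3′, with each CG dinucleotide in capitals. These are the windows of Gas1 (chr13:60325180-60325429, minus strand), Boc (chr16:44379433-44379682, minus strand) and Cdon (chr9:35332506-35332755, plus strand).
Gas1: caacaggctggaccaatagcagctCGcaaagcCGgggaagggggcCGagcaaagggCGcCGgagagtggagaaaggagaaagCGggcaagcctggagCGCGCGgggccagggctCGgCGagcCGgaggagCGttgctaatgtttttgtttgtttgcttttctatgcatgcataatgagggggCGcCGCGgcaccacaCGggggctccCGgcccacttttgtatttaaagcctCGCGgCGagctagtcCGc
Boc: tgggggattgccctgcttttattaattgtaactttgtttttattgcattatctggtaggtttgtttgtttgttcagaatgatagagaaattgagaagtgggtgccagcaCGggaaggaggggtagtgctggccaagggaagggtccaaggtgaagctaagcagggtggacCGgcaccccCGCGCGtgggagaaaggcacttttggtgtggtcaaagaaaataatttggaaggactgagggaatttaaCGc
Cdon: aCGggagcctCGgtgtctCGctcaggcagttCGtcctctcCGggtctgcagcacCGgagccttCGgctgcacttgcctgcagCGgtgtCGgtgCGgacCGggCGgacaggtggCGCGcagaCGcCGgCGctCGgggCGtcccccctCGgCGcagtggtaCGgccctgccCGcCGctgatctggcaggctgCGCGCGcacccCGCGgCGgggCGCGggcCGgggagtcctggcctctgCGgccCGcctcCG

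The window of Boc held 6 CG dinucleotides, that of Gas1 22 and that of Cdon 36. Their observed to expected CG ratios of 0.51, 0.94 and 0.97 compare with a median of 0.47 over 21664 protein-coding genes, so the windows of Gas1 and Cdon were rich in CG and that of Boc was near the median. The Gas1 window lies wholly within an exon of the lncRNA Gm48488 on the other strand, the Cdon window in an intron of longer Cdon transcripts, and the Boc window in no annotated exon. None of these windows held the 9-base GLI motif GACCACCCA or its reverse complement TGGGTGGTC, nor did the 2000 bases before their starts. In these 2000 bases an exact match was present for 1.67% of protein-coding genes, and in the last 250 bases for 0.185%. Among the 9 genes only Ptch1 held a match, and none was found for the 13 GLI targets examined below. The match, in capitals with 20 bases on each side, is shown because Ptch1 is a textbook GLI target. It lies at chr13:63714229-63714277 (minus strand, in an intron of longer Ptch1 transcripts), and its motif begins 165 bases before the start.
Ptch1: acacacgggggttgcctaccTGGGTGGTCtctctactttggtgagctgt

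Among the co-receptors, Gas1 encodes a protein anchored to the membrane by a lipid that binds hedgehog ligands and was first known as a gene of growth-arrested fibroblasts. Gas1 (ENSMUSG00000052957, chromosome 13, 60322219 to 60325179) had 1355, 1297 and 1304 normalized counts in the WT libraries and 8715, 8809 and 8342 in those labelled GαqKO. Every library labelled GαqKO was far above every WT library, and the spread within each group was small. The log2 change (libraries labelled GαqKO against WT) was 2.71 (standard error, SE, 0.042, limma adjusted p = 1.01e-14), with a 95% interval from 2.62 to 2.80. In these bulk samples a change in the share of cells that express a gene and a change in RNA per cell cannot be told apart. Of the exon bases of Gas1, 19.9% are shared with exons of Gm48488 on the opposite strand, and the strand setting of the counting is not stated. Gm48488 itself had 47.0, 54.4 and 42.7 normalized counts in WT and 165, 112 and 121 in the libraries labelled GαqKO, a log2 change of 1.43 (adjusted p = 1.12e-05 from limma).

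Boc and Cdon encode related membrane proteins of the immunoglobulin superfamily that bind hedgehog ligands and PTCH1. Boc (ENSMUSG00000022687, chromosome 16, 44305290 to 44379432) had 113, 129 and 124 normalized counts in WT and 10.3, 4.62 and 8.06 in the libraries labelled GαqKO. In whole reads these were 108, 133 and 122 reads in WT and 11 and 4 reads in replicates 1 and 2 labelled GαqKO. The groups were far apart, with a log2 change of -3.88 (SE 0.28, limma adjusted p = 3.2e-08). Boc passed the filter on low values through its WT libraries, since only 1 of the others reached 10, and with at least 10 normalized counts required in every library it was not tested. Its chromosome had a median log2 change of -0.19 over 430 genes tested. The medians of the autosomes, this chromosome among them, ran from -0.35 to 0.32. Whether the change of the chromosome bears on that of Boc was not tested.

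Cdon (ENSMUSG00000038119, chromosome 9, 35332424 to 35418948) was well expressed in both groups. It had 796, 855 and 913 normalized counts in WT and 293, 304 and 283 in the libraries labelled GαqKO, so the highest of the latter lay far below the lowest WT library. The log2 change was -1.54 (SE 0.071, limma adjusted p = 3.08e-10), with a 95% interval from -1.69 to -1.38. Leaving out each library in turn moved the log2 change of Cdon only between -1.59 and -1.49.

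Set against each other, the co-receptors shifted towards Gas1. Levels of different genes were compared as normalized counts per kb of exon, since longer genes collect more reads. The length was that of all annotated exons of a gene merged over its transcripts, which can exceed the length of any single transcript. Gas1 made up 79.2% ± 1.43 (SD, n = 3) of the summed co-receptor level per kb in WT and 98.9% ± 0.0057 (SD, n = 3) among the libraries labelled GαqKO. The share of Cdon went from 16.4% ± 1.16 to 1.07% ± 0.0145 and that of Boc from 4.46% ± 0.344 to 0.0537% ± 0.0202 (SD, n = 3 each). Each of these 3 shares differed without overlap between the groups, with an exact permutation p of 0.1 (two-sided), the smallest that 3 against 3 libraries allow. The summed level of the co-receptors per kb went from 562 ± 5.22 to 2945 ± 84.3 normalized counts per kb (SD, n = 3 each). A share within a library does not depend on the size factor of that library, but it does depend on exon length, and without division by length the differences in share were larger for all 3.

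**Figure D2:**
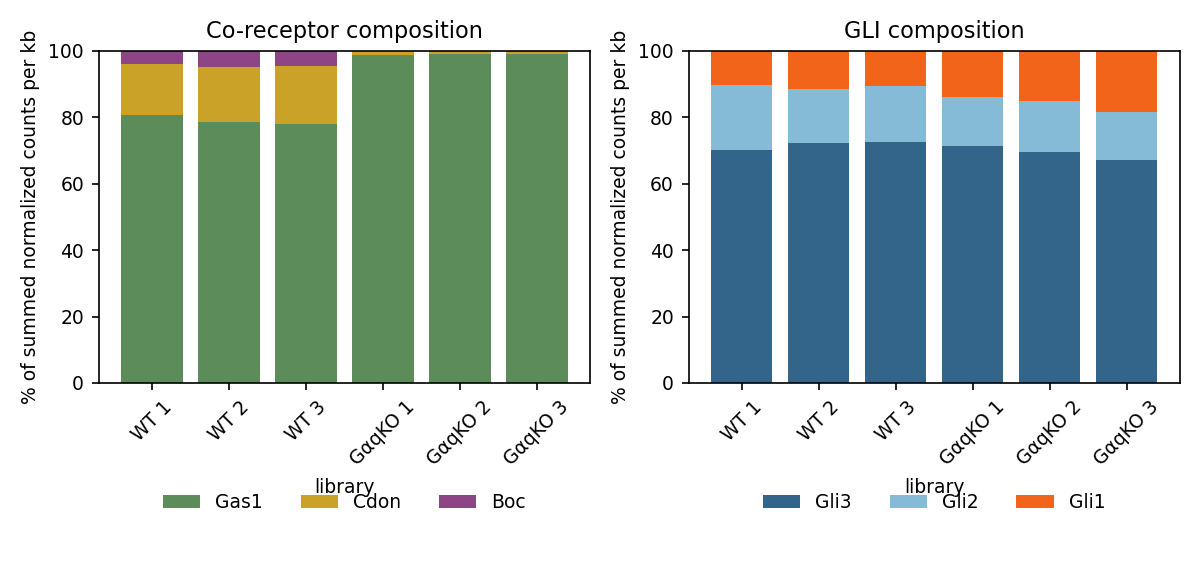
Share of each gene in the summed normalized counts per kb of exon, per library, for the co-receptors (left) and the GLI factors (right). Gas1 fills 78.1% to 80.8% of the left bars in WT and 98.9% in each library labelled GαqKO, whereas Gli3 makes up the largest part of the right bars in all 6 libraries.

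The GLI factors differ in role: GLI2 is the main activator, GLI3 is mostly processed to a repressor, and GLI1 is an activator whose own gene is switched on by the pathway. Gli3 (ENSMUSG00000021318, chromosome 13, 15637809 to 15904611) was the most abundant of the 3 per kb in both groups. It had 1099.5, 1111 and 1281 normalized counts in WT and 872, 828 and 808 in the libraries labelled GαqKO. Gli2 (ENSMUSG00000048402, chromosome 1, 118761858 to 118982598) had 247, 199 and 240.2 normalized counts in WT and 146, 147 and 140.0 in the libraries labelled GαqKO. In both genes each library labelled GαqKO was below each WT library. The log2 change was -0.47 for Gli3 (SE 0.065, limma adjusted p = 2.04e-05) and -0.66 for Gli2 (SE 0.11, limma adjusted p = 0.00017), so neither reached the fold threshold. The intervals of the changes overlapped, from -0.61 to -0.33 for Gli3 and from -0.90 to -0.41 for Gli2.

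Gli1 (ENSMUSG00000025407, chromosome 10, 127165751 to 127177865), the usual readout of pathway activity, had 81.4, 89.4 and 93.6 normalized counts in WT. The libraries labelled GαqKO had 85.5, 90.2 and 112 and overlapped with WT. Its log2 change was 0.11 (SE 0.16, limma adjusted p = 0.549), and the 95% interval from -0.23 to 0.45 leaves room for a level from 0.855 to 1.37 times that of WT. Replicate 3 labelled GαqKO stood above the rest, and without it the log2 change was close to 0 (limma adjusted p = 0.987). Of the exon bases of Gli1, 63.8% lie inside the spans of Arhgap9 and Gm47200 on the opposite strand. A smaller part, 7.34%, lies in exons of other genes. Arhgap9 and Gm47200 had at most 3.13 normalized counts in each library. The genes closest to Gli1 over the 6 libraries, among the 11192 whose mean reached 50 normalized counts, were Gm56496, Lif and Snw1, with root mean square distances of 0.0383, 0.0411 and 0.0614 between log2 values centred on their means. Since Gli1 was not called, this nearness rests on small differences between libraries, and shared control was not tested.

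Per kb, the GLI sum was 162 ± 12.4 normalized counts in WT and 121 ± 1.68 in the libraries labelled GαqKO (SD, n = 3 each). Gli3 made up 71.6% ± 1.37 of this sum in WT and 69.3% ± 2.13 in the libraries labelled GαqKO (SD, n = 3 each, exact permutation p = 0.2, two-sided), and the libraries of the groups overlapped. The share of Gli1 was 10.8% ± 0.665 and 15.9% ± 2.38, and that of Gli2 17.5% ± 1.83 and 14.8% ± 0.449 (SD, n = 3 each). For both the groups did not overlap, with an exact permutation p of 0.1 (two-sided), which is again the smallest possible. Gli3 was the leading GLI gene and Gas1 the leading co-receptor in all 6 libraries, as the plot of shares by library shows. The differences in share of the GLI genes rested in part on single libraries. That of Gli2 was -2.68 percentage points, and -1.65 without WT replicate 1. Without replicate 3 labelled GαqKO, that of Gli3 went from -2.33 to -1.21 and that of Gli1 from 5.01 to 3.68.

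Ptch1 and Smo, the receptor pair at the centre of the pathway, were both well expressed. Ptch1 (ENSMUSG00000021466, chromosome 13, 63656142 to 63721412) had 585, 623 and 683 normalized counts in WT and 593, 518 and 538 in those labelled GαqKO, 1 of which reached into the WT range. Smo (ENSMUSG00000001761, chromosome 6, 29735407 to 29762532) had 2126, 2160.4 and 2149 normalized counts in WT and 2458, 2209.6 and 2399.8 in the libraries labelled GαqKO, with no overlap but little distance. The log2 changes were -0.20 for Ptch1 (SE 0.075, limma adjusted p = 0.0331) and 0.13 for Smo (SE 0.048, limma adjusted p = 0.025). Both calls were lost when single libraries were left out. For Ptch1 the adjusted p from limma was 0.0688 without WT replicate 2, 0.129 without WT replicate 3, 0.126 without replicate 2 labelled GαqKO and 0.0951 without replicate 3 labelled GαqKO. For Smo it was 0.0589 and 0.0551 without WT replicates 1 and 2, and 0.119 and 0.0883 without replicates 1 and 3 labelled GαqKO.

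Hhip (ENSMUSG00000064325, chromosome 8, 80692480 to 80784658) encodes a membrane protein that captures hedgehog ligands and is, like Ptch1, a target of the pathway. In WT it had 1.04, 0 and 1.02 normalized counts, which is at or under the floor of 3 counts in each library, and in the libraries labelled GαqKO it had 4.7, 1.16 and 2.01. It was under the filter, no fold is given, and limma with no filter made no call (adjusted p = 0.204). The groups did not overlap, but the nearest values, 1.16 labelled GαqKO and 1.04 in WT, stood for 1 read each. A difference could not be told at this depth. Floors and whole reads cover counting error only.

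**Figure D3:**
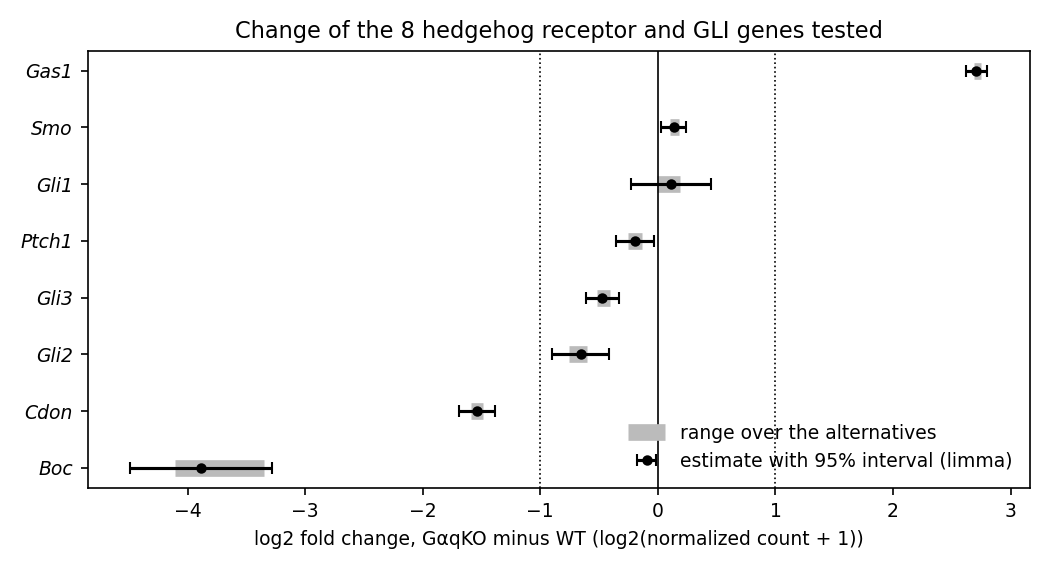
Log2 change (libraries labelled GαqKO minus WT) of the 8 genes tested, with the 95% interval of limma and, in grey, the range over the alternative settings. Gas1 at 2.71 and Boc at -3.88 lie at the ends, Cdon at -1.54 is also past the dotted lines at 1 and -1, and the interval of Gli1 includes 0.

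The order of the genes by level per kb was Gas1, Smo, Gli3, Cdon, Ptch1, Gli2, Boc, Gli1 and Hhip in WT, from 445 ± 10.8 to 0.0641 ± 0.0555 normalized counts per kb (SD, n = 3 each). Of the neighbours in this order, Gli2 (28.4 ± 3.23) and Boc (25.1 ± 1.73) did not differ beyond their spread. The order depends on division by length, since without it Smo (mean of 2145 normalized counts in WT) stood above Gas1 (1319). In the libraries labelled GαqKO, Gas1, Smo and Gli3 kept the first ranks, Ptch1 (37.3 ± 2.62) came before Cdon (31.6 ± 1.14), and Boc (1.58 ± 0.59) ranked after Gli1 (19.1 ± 2.80) and Gli2 (17.9 ± 0.453), whose libraries overlapped.

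The rest of the pathway was examined through 5 lists chosen with earlier results of these data known. Of the 8 genes for hedgehog ligands, their acylation and their release, 3 were tested. Hhat, which encodes the acyltransferase of hedgehog ligands, had 51.9 ± 17.8 normalized counts in WT and 196 ± 14.6 in the libraries labelled GαqKO (SD, n = 3 each), a log2 change of 1.94. Scube3, of a family of secreted proteins that carry the released ligand, rose by 1.43 on the log2 scale, from 102 ± 2.90 to 276 ± 5.72 (SD, n = 3 each). Disp1, whose product releases the ligand from producing cells, fell by a log2 change of -0.60, from 1081 ± 53.9 to 712 ± 46.7 normalized counts (SD, n = 3 each). The adjusted p from limma was 1.25e-06 for Hhat, 3.6e-08 for Scube3 and 1.4e-06 for Disp1. The other 5, named after their values were seen, were under the filter on low values. The ligand gene Shh was listed at 0 in each library, Dhh had at most 2.82 normalized counts, and Ihh had 3.13, 1.94 and 1.02 in WT and 6.57, 6.94 and 5.04 in the libraries labelled GαqKO. Scube1 and Scube2 had at most 5.22 normalized counts. With no filter limma tested 7 of the 8 and also called Dhh higher (adjusted p = 0.0249), although Dhh had no read in WT and at most 3 reads where reads were recovered, so no fold is given. Ihh was not called with no filter (limma adjusted p = 0.0977) or in DESeq2 (adjusted p = 0.312). Other genes span all exon bases of Dhh and 48.8% of those of Shh, but exons of other genes cover 28.3% and 22.6%. How far this overlap lowered the values of either gene was not tested.

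Among 13 known GLI targets other than the 9 genes, 12 were tested. Of these, 9 rose and 2 fell (limma), against 31.8% and 34.1% of all genes, and 7 and 1 respectively also passed the fold threshold, against 10.2% and 10.5%. Their median log2 change was 1.26. The gene that fell past the threshold was Bmp4, a signalling ligand, at 400.0 ± 18.3 against 109.8 ± 12.3 normalized counts (SD, n = 3 each). The largest rise of the list was that of the patterning factor gene Pax9, from 9.04 ± 2.42 to 338 ± 39.5 (SD, n = 3 each), a log2 change of 5.10. Spp1, which encodes the secreted protein osteopontin, came next with a log2 change of 3.89, from 2212 ± 186 to 32807 ± 243 normalized counts (SD, n = 3 each). The forkhead gene Foxl1 had 2.91 to 10.4 normalized counts in WT and 84.4 to 106 in the others, a log2 change of 3.60. Snai1, a factor of epithelial to mesenchymal transition, had a log2 change of 1.89, the cell cycle gene Ccnd1 one of 1.34, Mycn one of 1.27 and the other forkhead gene named, Foxf1, one of 1.25. Pax9 and Foxl1 would not have passed the filter on low values by their WT libraries alone. Both are counted among the 7 genes higher past the fold threshold and in the median of 1.26. In WT, Pax9 reached 10.7 and 10.2 in replicates 2 and 3, and Foxl1 10.4 in replicate 1. With at least 10 normalized counts required in every library, 10 targets were tested, 7 higher and 2 lower (limma). Over all genes that filter called 8068 of 12054. Exons of other genes cover 48.4% of the exon bases of Ccnd1 and 31.1% of those of Bmp4, and the strand setting of the counting is not stated. Many of these targets are also under the control of other pathways. Of the targets among the 9 genes themselves, Ptch1 was slightly lower, Gli1 was not called and Hhip was not tested.

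**Figure D4:**
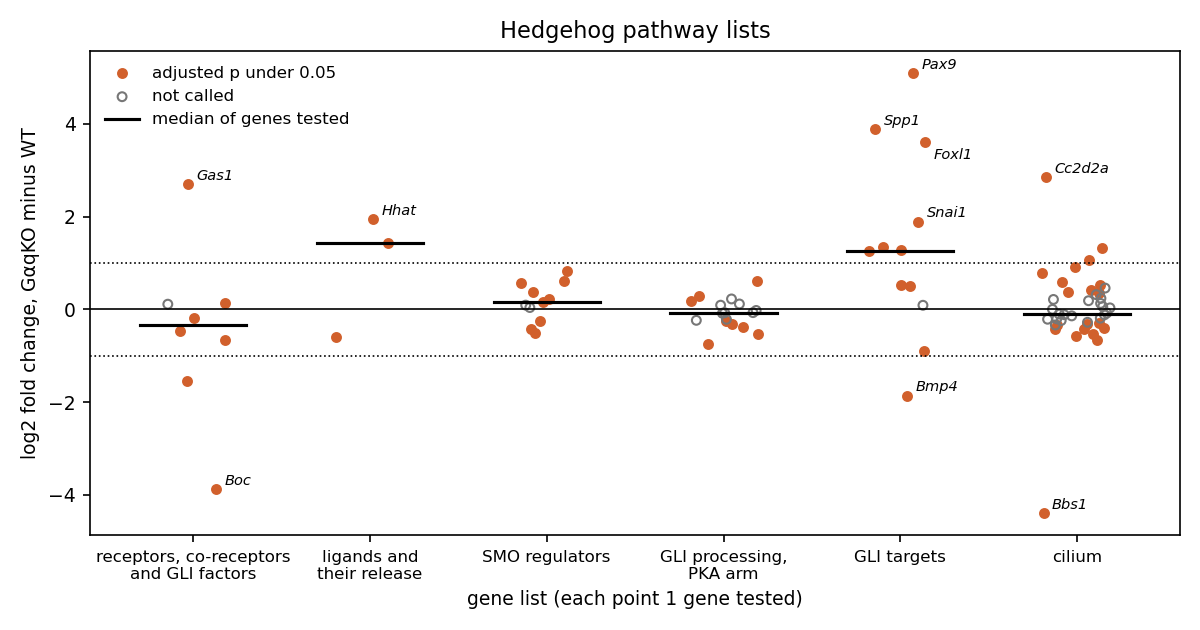
Log2 change (libraries labelled GαqKO minus WT) of each gene tested in the 9 genes and the 5 pathway lists, with filled points for an adjusted p under 0.05 and a bar at the median. The GLI targets run from -1.86 for Bmp4 to 5.10 for Pax9, whereas no gene of the SMO regulators or of GLI processing passes the dotted lines at 1 and -1.

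Among the SMO regulators and the GLI processing genes that were tested, none passed the fold threshold. Of 15 regulators and adaptors of SMO, 11 were tested. By limma, 6 rose and 3 fell, against 31.8% and 34.1% of all genes, and 0 passed the fold threshold, against 20.7%. Their median log2 change in size was 0.38, beside 0.39 over all genes. The ends of this list were Rnf157, a gene of a ubiquitin ligase family, with a log2 change of 0.82, and Mgrn1, whose product marks SMO for removal from the cell surface, with -0.52. All 17 genes of GLI processing and its protein kinase A arm were tested, 3 rose and 5 fell, against the same shares of 31.8% and 34.1%, and again 0 passed the fold threshold. The median size of their log2 change was 0.22. The count past the fold was 0 for both lists at an unadjusted p under 0.05 too, and in edgeR and DESeq2 on 5 libraries. Prkacb, a catalytic subunit of protein kinase A, rose by 0.62 on the log2 scale, from 1289 ± 63.9 to 1983 ± 39.5 (SD, n = 3 each). Gsk3b, a kinase that phosphorylates GLI proteins, fell by 0.76 on the log2 scale, from 2708 ± 173 to 1600.0 ± 47.5 normalized counts (SD, n = 3 each).

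The cilium, where these proteins meet, was represented by 41 genes of ciliary transport and the transition zone. Of the 40 tested, 10 were higher, 10 lower and 20 not called (limma), beside 65.8% of all genes called, and the median log2 change was -0.09. Past the fold threshold, 3 were higher and 1 lower, against 10.2% and 10.5% of all genes. Bbs1, a subunit of the BBSome that carries membrane proteins out of the cilium, had 152, 142 and 179 normalized counts in WT and 6.57, 4.62 and 9.06 in the libraries labelled GαqKO, a log2 change of -4.39 (SE 0.26, limma adjusted p = 4.23e-09). Another BBSome gene, Bbs2, rose from 79.8 ± 14.6 to 166 ± 12.9 (SD, n = 3 each). Cc2d2a, of the transition zone, rose from 22.2 ± 5.43 to 168 ± 37.3 and Ift52, of the transport trains, from 283 ± 37.2 to 711 ± 78.4 (SD, n = 3 each). Bbs1 passed the filter on low values through WT alone.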

How the data were processed

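Poly-A selected RNA of 3 WT and 3 GαqKO MEF libraries was sequenced as paired ends, aligned by the authors to GRCm39 with Rbowtie2 and counted per gene with featureCounts on GENCODE M32. Tool versions, strand setting and filters are not given in the sources used here. Each deposited value is a signal: the count of a gene after division by the size factor of its library. Symbols, exon lengths and overlaps came from GENCODE M39 of the same build, which matched 56310 of 56953 identifiers.

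The planned main test, limma (3.58.1, R 4.3.3) with a trend, was fitted to log2(normalized count + 1) over 14096 genes. In 5 libraries 100.0% of nonzero values were whole multiples of 1 step (within 0.1 reads), which gave 9853000 to 12229175 reads. Reads of GαqKO replicate 3 were not used, so edgeR (4.0.16) and DESeq2 (1.42.0) were run on 5 libraries as alternatives, where edgeR called 8875 of 14433 genes. Chi-square per gene between replicates ran from 2.44 to 5.50, so no pair was merged. Scripts were tested on simulated data. The 9 genes and all lists were chosen with earlier results of these data known. Genes named by rule are the 9, Gnaq and Gna11, and the genes closest to Gli1. From each pathway list they are the genes past both thresholds (at most 8) or else its largest rise and fall. Disp1 and the 5 genes of the ligand list under the filter were named outside this rule. Marker genes, Ddx3y, Xist and the genes overlapping the 9 were added beside the results they touch. Other alternatives changed the scaling (TMM), the filter or the pseudocount (0.5 and 5), added a replicate block, or left out each library in turn. GLI motifs were searched as exact matches on both strands. Protein sequences were not used here, and 1 gene of the planned list of GLI targets is not reported here. Python 3.11.15, numpy 2.4.6, pandas 2.3.3, scipy 1.17.1 and matplotlib 3.10.9 were used.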

Additional observations from a re-analysis of the deposited data

How the results depend on the processing

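Gas1, Boc, Cdon, Gli2 and Gli3 kept their direction and an adjusted p under 0.05 under each alternative in which they were tested, 15 for each gene and 14 for Boc. Over these alternatives the log2 fold change ran from 2.69 to 2.75 for Gas1, from -4.11 to -3.35 for Boc and from -1.59 to -1.49 for Cdon. Smo did not keep its call, and the number of the 9 genes called higher was 1 in DESeq2 on 5 libraries (adjusted p of Smo 0.144), 1 in limma on the same 5 libraries and from 1 to 2 with a library left out. The number lower past the fold threshold was 1 with at least 10 normalized counts required in every library, because Boc was then not tested. Over all genes this filter gave 831 higher and 765 lower past the fold threshold, against 1432 and 1486, with fewer genes tested. For Ptch1 the adjusted p was 0.107 in edgeR and 0.264 in DESeq2 on 5 libraries. A replicate block left its log2 fold change at -0.20 with an adjusted p of 0.056. Libraries of the same number did not deviate together (correlations of -0.11, -0.01 and -0.07 over 10109 genes). This cannot show whether they shared a culture or a preparation. The block changed no other call among the 9 genes. It called 8962 genes against 9279. The log2 fold change of Gli1 ran from close to 0 to 0.19 (adjusted p from 0.364 to 0.997), and its sign turned without GαqKO replicate 3. Without division by exon length the difference in share (GαqKO minus WT) was 39.2 percentage points for Gas1, -5.23 for Boc and -33.9 for Cdon, against 19.7, -4.41 and -15.3 per kb. For Gli1, Gli2 and Gli3 it was 2.96, -2.08 and -0.88, against 5.01, -2.68 and -2.33 per kb. TMM scaling moved the median of all genes by less than 0.1 on the log2 scale. Depth limits what can be said of Hhip, Dhh and Ihh. Overlap with exons of other genes may limit several genes. Among them are Ccnd1 (48.4% of exon bases), Bmp4 (31.1%), Dhh (28.3%), Shh (22.6%), Gas1 (19.9%) and, less so, Gli1 (7.34%).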
